A study of Mus musculus with 6 samples.

Results

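Carbonic anhydrase genes and the guanylin signalling genes of the colon surface were examined in 6 RNA sequencing libraries of mouse colon, 3 from Adamts4 knockout mice (KO) and 3 from wild-type mice (WT), with Krt20 as a keratin of the same cells. The 9 genes were picked by symbol from the 21899 genes of the deposited table. No measured value entered that rule, but earlier results of these data were known when the set was chosen. They comprise 5 carbonic anhydrase genes (Car1, Car2, Car4, Car12 and Car13), the ligand genes Guca2a and Guca2b, the receptor gene Gucy2c, and Krt20. Mice of both groups had received 2.5% dextran sodium sulfate (DSS), which injures the colonic epithelium, for 7 days, so the groups differ by the labelled genotype and no untreated mice were analysed here. The labels give no knockout allele, strain, sex, age, litter or segment of colon, and do not say whether each library came from its own animal. The p-values therefore measure the spread between these samples, which may be technical.

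Carbonic anhydrases interconvert carbon dioxide and bicarbonate. In the colon they supply the protons and bicarbonate that the apical sodium-proton and chloride-bicarbonate exchangers trade for salt during absorption. Guanylin (Guca2a) and uroguanylin (Guca2b) are small peptides secreted into the lumen. They bind guanylate cyclase C (Gucy2c) on the apical membrane, and the cyclic GMP that follows opens the CFTR chloride channel and restrains sodium-proton exchange through NHE3 (Slc9a3). Several of these genes are switched on as colonocytes leave the crypt and reach the surface, where keratin 20 also accumulates.

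The genes lie in part in clusters. On GRCm38, by the GENCODE M21 annotation matched on Ensembl identifier, Car13 (14641727 to 14663002, plus strand), Car1 (14766216 to 14808368, minus strand) and Car2 (14886273 to 14900770, plus strand) share a 259 kb stretch of chromosome 3 with Car3. Car4 lies on chromosome 11 (84957786 to 84966044), Car12 on chromosome 9 (66713686 to 66766845), Gucy2c on chromosome 6 (136697284 to 136781765) and Krt20 on chromosome 11 (99428403 to 99438150). Guca2a (119637704 to 119639471, plus strand) and Guca2b (119656607 to 119658954, minus strand) face each other on chromosome 4 with 17.1 kb between their ends. Within the span of Car1 the annotation has a processed pseudogene, Gm16399, on the same strand. Spans and not exons were compared, so whether it shares reads with Car1 was not tested. No other annotated gene overlaps any of the other 8.

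The RefSeq promoter table of GRCm38.p6 matched 5 of the 9 genes by symbol (Car4, Car12, Guca2a, Guca2b and Krt20). The promoters of the neighbouring ligand genes are shown because both genes were high in the KO 3 library (values below), though Guca2a was highest in WT 1. Whether these bases bear on either level was not tested. The bases are 5′ to 3′ on each gene's own strand, upstream of the RefSeq and GENCODE starts. Capitals mark AGATAA, the core of GATA factor sites, on either strand.
Guca2a promoter, chr4:119637482-119637703, plus strand: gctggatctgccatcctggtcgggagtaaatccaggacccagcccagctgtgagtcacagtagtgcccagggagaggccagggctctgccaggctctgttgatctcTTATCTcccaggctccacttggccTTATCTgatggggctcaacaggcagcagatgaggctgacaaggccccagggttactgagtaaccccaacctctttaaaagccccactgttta
Guca2b promoter, chr4:119658955-119659195, minus strand: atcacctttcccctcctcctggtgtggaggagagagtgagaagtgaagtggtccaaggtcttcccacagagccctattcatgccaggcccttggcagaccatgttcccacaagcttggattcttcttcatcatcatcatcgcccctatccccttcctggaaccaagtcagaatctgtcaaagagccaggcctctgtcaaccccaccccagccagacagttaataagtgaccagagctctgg

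AGATAA, read on both strands, occurs in 11.2% of the 32851 promoters of 300 bases in the table. It matched at 2 places in Guca2a, which begin 144 and 120 bases before the RefSeq start, and at 1 in Krt20. Guca2b, Car4 and Car12 have no match in this window. TATAAA matched in Krt20, 29 bases before the start, and in Car4, 42 bases after it (13.6% of promoters). TTTATG, a core of CDX sites, matched in none of the 5 (11.9% of promoters). CPM below are counts relative to library size, scaled by TMM factors.

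Libraries held between 15786214 and 22932125 counts. Adamts4 had 0 counts in each KO library and 900, 992 and 997 in the WT libraries, as the labels say. The KO 3 library was set off from the rest by the first principal component (score 63.8, against -43.1 to 22.4 in the others). It had 9.50% mitochondrially encoded counts against 4.03% to 7.66%, and low fibroblast genes. Where leaving out KO 3 turned a sign or moved a value widely, the value without it is given too. All 11 pan-epithelial markers, such as Epcam and Krt8, were detected in every library. Their summed level was 14487 to 18506 CPM in KO and 13615 to 16789 in WT, highest in KO 3.

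All 9 genes passed the expression filter, and none passed the test between KO and WT. In edgeR's quasi-likelihood test with Benjamini-Hochberg adjustment over 14553 genes, 0 of 9 had an adjusted p below 0.05, where 0.158% of all tested genes did. None had an unadjusted p below 0.05 either, where 13% of all genes did. DESeq2 called 0 of 9 (3.78% of genes) and limma-voom 0 of 9 (29 of 14553 genes). The CPM of KO and WT did not overlap for 1 of the 9 genes, Car2, against 19.5% of all genes. The median log2 fold change of the 9 was -0.01 and that of all tested genes 0.03. A missed threshold does not show equal levels, so the 95% interval of each difference is given with each gene.

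**Figure D1:**
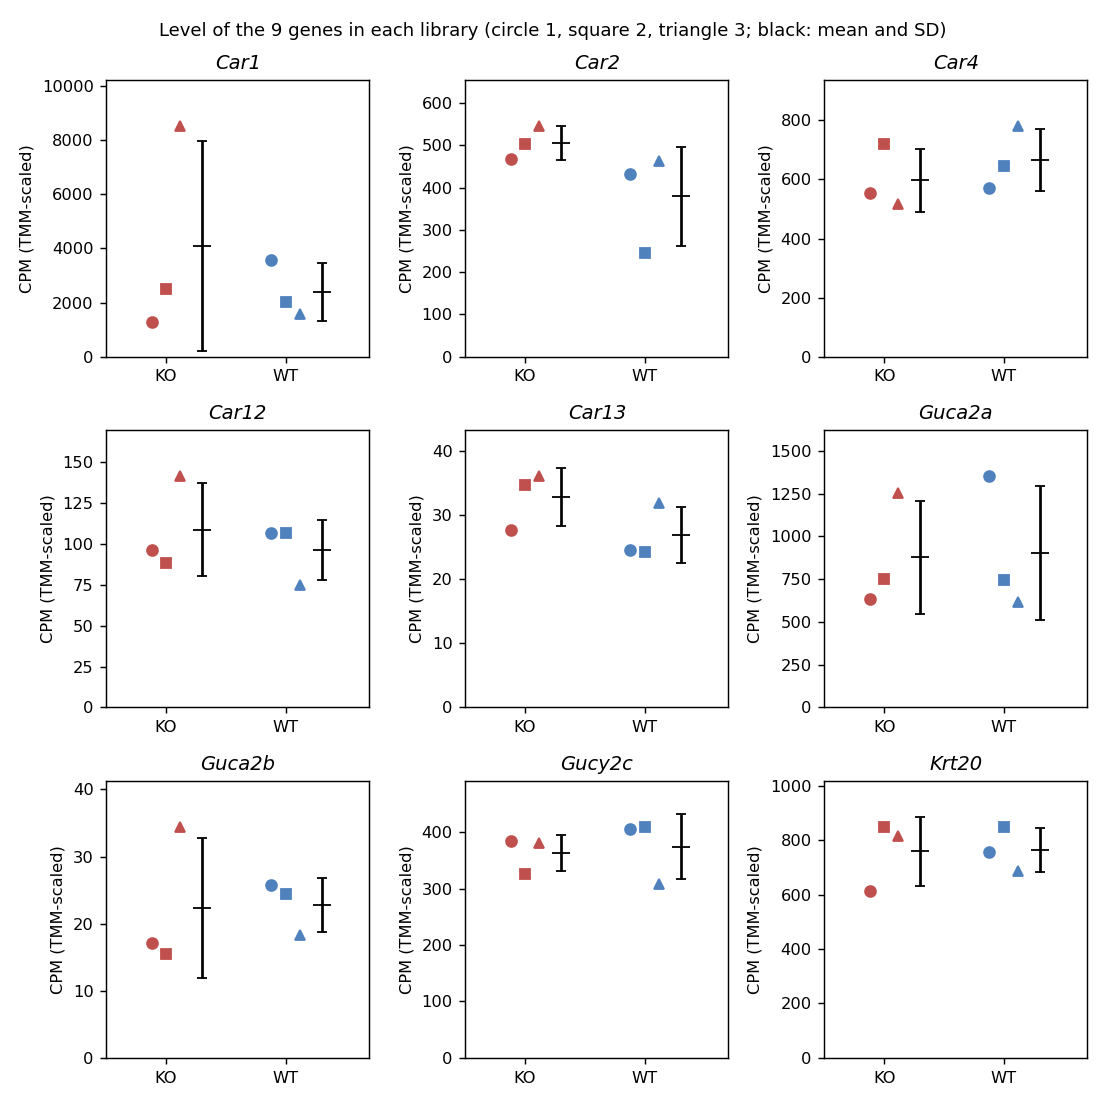
Level of each gene (CPM scaled by TMM factors, linear axis from 0) in the 3 KO (red) and 3 WT (blue) libraries, with the group mean and SD in black. Car1 ranges from 1282 CPM in KO 1 to 8524 in KO 3, while Gucy2c and Krt20 stay within narrow bands in both genotypes.

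Car1, the cytosolic carbonic anhydrase I of colonocytes and red cells, was the most variable of the 9 genes. The KO libraries had 1282 (KO 1), 2508 (KO 2) and 8524 CPM (KO 3), and the WT libraries 3585 (WT 1), 2020.4 (WT 2) and 1573 CPM (WT 3). KO 3 was 2.38 times the highest other library, KO 1 was the lowest of all 6, and the WT values lay between them. The KO mean was 4105 ± 3876 CPM and the WT mean 2393 ± 1057 (SD, n = 3). The log2 fold change was 0.78 ± 0.63 (SE; 95% interval -0.68 to 2.24; edgeR adjusted p = 0.648). Without KO 3 it was -0.34, with a KO mean of 1895 CPM, so the sign of the difference rested on that library. The within-group SD of Car1 on the log2 scale was 1.07, at the 98.6th percentile of all tested genes.

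Car2, the fast cytosolic carbonic anhydrase II, was slightly higher in CPM in every KO library than in any WT library. It had 467, 503 and 546 CPM in the KO libraries and 431, 246 and 463 in the WT libraries, with the highest WT value (WT 3) just under the lowest KO value (KO 1). The means were 505 ± 39.5 and 380 ± 117 CPM, and WT 2 alone accounted for most of the WT spread. The log2 fold change was 0.41 ± 0.26 (95% interval -0.18 to 1.004; adjusted p = 0.537), and the exact two-sided permutation p was 0.1, the smallest that 3 against 3 allows. In the fits that left out 1 library it ranged from 0.18 to 0.58. Against the mean log2 level of the 11 pan-epithelial markers the separation was lost, since WT 3 then stood highest at -0.98 and WT 2 lowest at -2.08.

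Car13, a further cytosolic carbonic anhydrase and neighbour of Car1, was lower than Car2 and also had its highest value in KO 3 and its lowest in WT 2. Its values were 27.6, 34.8 and 36.0 CPM in KO and 24.5, 24.2 and 31.9 in WT. WT 3 lay above KO 1, so the groups overlapped. The log2 fold change was 0.29 ± 0.19 (95% interval -0.14 to 0.71; adjusted p = 0.549), and it stayed above 0 in all 14 alternative fits, as did that of Car2, with no call in any. Among the other 8 genes Car2 had the profile nearest to that of Car13 (root-mean-square distance 0.26 log2 units over the 6 libraries).

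Car4 and Car12 are carbonic anhydrases of the cell surface, Car4 held by a lipid anchor on the apical membrane and Car12 spanning the membrane. Car4 had 555, 718 and 518 CPM in KO and 572, 645 and 781 in WT. It was the only one of the 5 whose lowest value was in KO 3, where Car1 was highest. Its log2 fold change was -0.16 ± 0.21 (95% interval -0.65 to 0.33; adjusted p = 0.795) and lay below 0 in all 14 alternative fits. Car12 had 96.3, 88.5 and 141 CPM in KO and 107, 107 and 75.1 in WT, highest in KO 3 and lowest in WT 3. Its log2 fold change of 0.18 ± 0.22 (95% interval -0.33 to 0.68; adjusted p = 0.774) went to -0.06 without KO 3.

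Guanylin, the main ligand by RNA level, had a high library in each genotype and nearly equal group means. Guca2a had 632, 748 and 1253 CPM in KO and 1350, 746 and 615 in WT. WT 1 and KO 3 were high and the other 4 libraries lay between 615 and 748 CPM. The means were 878 ± 330 and 904 ± 392 CPM (log2 fold change -0.04 ± 0.36, 95% interval -0.87 to 0.79; adjusted p = 0.972). The value was -0.39 without KO 3 and 0.36 without WT 1.

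Uroguanylin was present at a much lower level with part of the same pattern. Guca2b had 17.1, 15.6 and 34.4 CPM in KO and 25.7, 24.4 and 18.2 in WT, highest in KO 3, with WT 1 next and close to WT 2. The log2 fold change was -0.03 ± 0.32 (95% interval -0.76 to 0.70; adjusted p = 0.977), and -0.48 without KO 3. Among the other 8 genes, Guca2b was the nearest profile to Guca2a (distance 0.28), while Car12 was the nearest to Guca2b (0.20).

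The receptor and the keratin were the steadier members. Gucy2c, guanylate cyclase C, had 384, 326 and 380.0 CPM in KO and 405, 409 and 308 in WT. Its 6 values spanned a ratio of 1.33 and its log2 fold change was -0.04 ± 0.19 (95% interval -0.48 to 0.39; adjusted p = 0.942). Krt20, an intermediate filament keratin of differentiated gut epithelium, had 614, 848 and 814 CPM in KO and 757, 847 and 686 in WT. Its values spanned a ratio of 1.38, with a log2 fold change of -0.01 ± 0.20 (95% interval -0.47 to 0.45; adjusted p = 0.990). For both genes the interval left out changes as large as 1.5-fold in either direction, the bounds being 0.719 to 1.31 for Gucy2c and 0.723 to 1.37 for Krt20. For Car1 the bounds were 0.624 to 4.72, so a several-fold rise in KO was not excluded. Without KO 3 the log2 fold change of Car1 was -0.34 ± 0.41 (SE), so a fall beyond the lower bound was not excluded either.

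**Figure D2:**
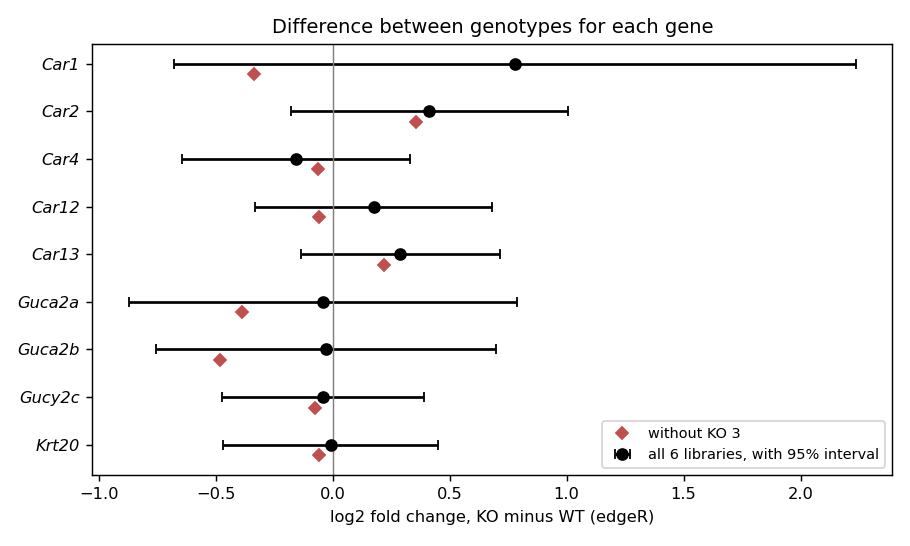
Log2 fold change (KO minus WT, edgeR) of each gene with its 95% interval in black, and the value without KO 3 as a red diamond. Every interval spans 0, that of Car1 is the widest (-0.68 to 2.24), and without KO 3 the values of Car1 and Car12 change sign.

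On a scale per gene length, the authors' TPM, the genes spanned more than 2 orders of magnitude. Mean TPM over the 6 libraries was 4830 for Car1, 2690 for Guca2a, 916 for Car4, 715 for Krt20, 476 for Car2, 168 for Gucy2c, 66.6 for Guca2b, 49.5 for Car12 and 23.4 for Car13. Car1 and Guca2a overlapped in range (1935 to 11774 and 1876 to 4161 TPM), though Car1 was the higher in each library. Car4 overlapped with Krt20, and Guca2b with Car12. The other neighbours in this order did not overlap, Krt20 and Car2 by a small margin (568 against 564 TPM).

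**Figure D3:**
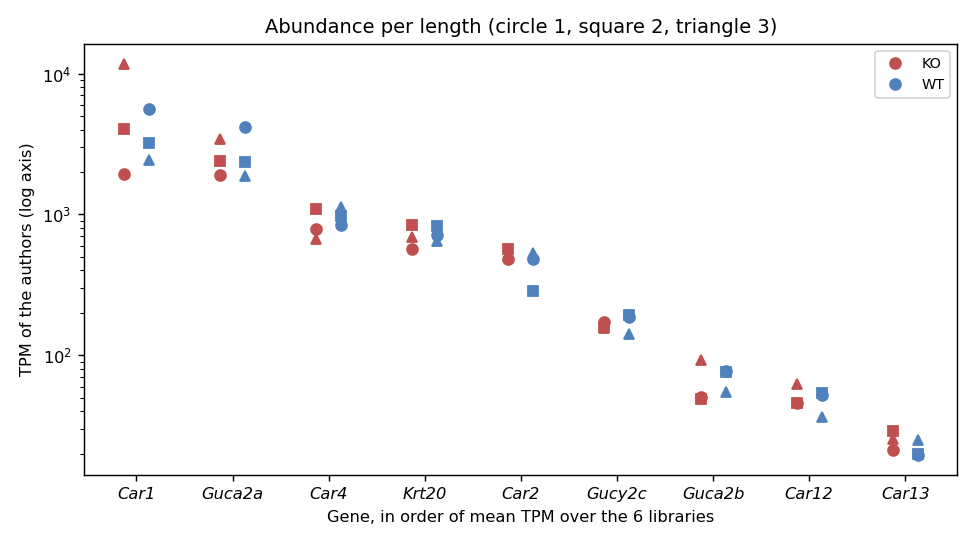
TPM of the authors (log axis) for each gene in the 3 KO (red) and 3 WT (blue) libraries, ordered by mean. Car1 and Guca2a lie highest at means of 4830 and 2690 TPM and Car13 lowest at 23.4 TPM, with red and blue points mixed in most columns.

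The balance between family members varied among the libraries of each genotype. Of the summed TPM of the 5 carbonic anhydrases, Car1 made up 59.1% (KO 1), 70.1% (KO 2) and 90.3% (KO 3) in KO and 80.0% (WT 1), 70.8% (WT 2) and 58.3% (WT 3) in WT. The ratio of Car1 to Car2 TPM ran from 4.02 in KO 1 to 23.4 in KO 3 and took in the WT range of 4.51 to 11.5. The ratio of Guca2a to Guca2b TPM was 41.4 ± 6.77 in KO and 39.7 ± 12.1 in WT, and that of Guca2a to its receptor Gucy2c 16.1 ± 5.54 and 15.9 ± 5.49 (SD, n = 3). In each library the Guca2a TPM was 31.2 times the Guca2b TPM or more, and 10.97 times the Gucy2c TPM or more, and the group means differed by less than the SD.

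In bulk tissue, fewer cells of a type and less RNA per cell cannot be told apart, so each gene was also set against the 11 pan-epithelial markers. On that scale 4 genes lay above 0 (KO minus WT), namely Car1 (0.34), Car2 (0.38), Car12 (0.08) and Car13 (0.20), and 5 below, from Gucy2c (-0.12) and Krt20 (-0.10) to Car4 (-0.25). Exact two-sided permutation p-values ran from 0.3 to 0.8. Guca2a stood at -0.11 and Guca2b at -0.19. Without KO 3, Car1 turned to -0.33 and Car12 to -0.041, so that only Car2 (0.41) and Car13 (0.22) stayed above 0, and Guca2a and Guca2b were at -0.31 and -0.47. Car1 in KO 3 was still the highest value, at 2.81 log2 units above the markers against 0.30 to 1.69 in the other libraries, while Car4 was lowest there at -1.23.

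**Figure D4:**
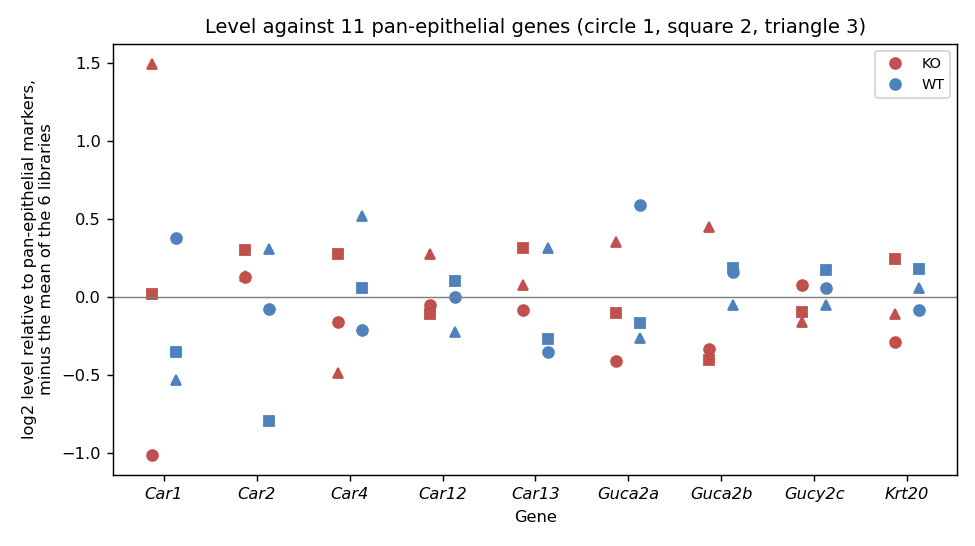
Log2 level of each gene relative to the mean log2 CPM of 11 pan-epithelial markers, centred on the mean of the 6 libraries, for KO (red) and WT (blue). KO and WT points interleave for each gene, and Car1 and Car4 lie at opposite ends in KO 3.

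Markers of other cells that make some of these enzymes were compared library by library. Red cells hold Car1 and Car2 protein, and erythroid markers (6 of 8 tested) summed to 81.4 to 236 CPM in KO and 382 to 1704 in WT, highest in WT 3. Ahsp had no matching row. Among the WT libraries, WT 3 was the lowest for Car1 (1573 CPM) and the highest for Car2 (463 CPM). The part of blood RNA in Car1 and Car2 was not tested. The 8 endothelial markers, all detected, summed to 290, 216 and 100.2 CPM in KO and to 332 to 373 in WT, lowest in KO 3, as Car4 was. The 6 fibroblast markers summed to 602 CPM in KO 3 and to 2072 to 4430 in the other libraries. Hoxb13, a homeobox gene of the distal colon, had 83.4, 95.3 and 39.0 CPM in KO and 40.3, 15.0 and 88.5 in WT (adjusted p = 0.705). All 4 distal genes tested had log2 fold changes above 0 (median 0.48, and 0.80 without KO 3). None was called in edgeR or DESeq2, and 1, Insl5, had an unadjusted edgeR p below 0.05. Hoxa13 and Insl5 were, like Hoxb13, lowest in KO 3 among the KO libraries and in WT 2 among the WT libraries. Hoxa13 had 18.5 CPM in KO 3 and 18.9 in WT 2. Insl5 had 70.0, 69.8 and 38.4 CPM in KO and 25.5, 8.40 and 44.0 in WT. Hoxd13, at a lower level, was instead highest in KO 3 (8.43 CPM against 1.08 to 5.11), and lowest among WT in WT 2 (1.38). The part of stroma or of position along the colon in these levels was not tested.

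Other genes of surface colonocytes gave 0 calls among 20 tested in edgeR and 0 in DESeq2 (2 with an unadjusted p below 0.05), with a median log2 fold change of 0.18, and 0.08 without KO 3. Aqp8, a water channel of surface cells, had 565, 808 and 459 CPM in KO and 301, 199 and 474 in WT (0.91 ± 0.35, adjusted p = 0.335). Trpm6, a magnesium channel, averaged 66.7 ± 61.5 and 20.2 ± 10.6 CPM (1.72 ± 0.65, adjusted p = 0.334), with 138 CPM in KO 2 alone. Selenbp1, Fabp2, Tmigd1 and Slc51a were, like Car1, highest in KO 3, at 1427, 235, 163 and 226 CPM. In contrast Aqp8, the chloride-bicarbonate exchanger Slc26a3 and Trpm6 were highest in KO 2. Of the 20 markers 7 peaked in KO 3 and 7 in KO 2, against 5 and 1 of the 9 genes described here and 7 and 1 of the 11 pan-epithelial markers. Over all tested genes 23.0% peaked in KO 3 and 20.4% in KO 2.

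Of 11 other carbonic anhydrases listed, 7 were tested and 0 were called in edgeR or DESeq2, with 0 at an unadjusted p below 0.05 and a median log2 fold change of -0.07. Car9, the hypoxia-inducible membrane form, had 58.5, 55.5 and 71.1 CPM in KO and 78.1, 53.0 and 63.3 in WT (-0.07 ± 0.18). Car8, a relative without catalytic activity, had 40.9, 44.7 and 69.4 in KO and 54.3, 54.2 and 40.2 in WT. Car3, an enzyme of muscle and fat that lies between Car1 and Car2 on chromosome 3, had 21.0 to 25.0 CPM in KO and 1.97, 18.0 and 114 in WT. Adipoq, an adipocyte marker, showed the same order in WT, at 0.855, 16.1 and 34.9 CPM. Car5a, Car6, Car10 and Car14 did not pass the filter, with at most 13 counts in a library.

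Downstream of the receptor, 12 of 13 listed effectors and targets of cyclic GMP were tested, and 0 were called in edgeR or DESeq2 (median log2 fold change -0.11, 1 at an unadjusted p below 0.05). Pde9a, a phosphodiesterase that degrades cyclic GMP, had 187, 198 and 181 CPM in KO and 316, 220 and 242 in WT. All KO values lay below all WT values, but the difference of -0.46 ± 0.17 did not pass (adjusted p = 0.330). The chloride channel gene Cftr had 72.2, 120 and 74.9 CPM in KO and 66.2, 70.8 and 77.6 in WT (0.32 ± 0.21). Prkg2, the membrane-bound cyclic GMP kinase of the gut, had 9.04, 18.5 and 24.5 in KO and 20.4, 18.5 and 11.7 in WT, so the groups overlapped fully. Slc9a3, the exchanger NHE3, had 456, 535 and 307 CPM in KO and 407, 462 and 324 in WT. Of 6 other guanylate cyclases and natriuretic peptide receptors 5 were tested, all with log2 fold changes below 0 and none called (median -0.65, and -0.50 without KO 3). Npr2 had the smallest p of these (-0.65 ± 0.27), and Npr3 and Npr1 stood at -1.06 and -0.75.

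Among 13 acid-base transporters that work with the carbonic anhydrases, 0 were called in edgeR and 1 in DESeq2, Slc4a1, the red cell anion exchanger (3.09 ± 2.98 CPM in WT and 0.389 ± 0.421 in KO, edgeR adjusted p = 0.247), which is also an erythroid marker. Slc26a3 had 171, 546 and 173 CPM in KO and 221, 104 and 260.2 in WT. The proton-potassium pump gene Atp12a ranged from 12.2 CPM in WT 2 to 367 in KO 2. Epithelial transcription factors gave 0 calls among 16 in edgeR and 1 in DESeq2, the Notch target Hes1. Hes1 had 46.8, 44.4 and 51.1 CPM in KO and 33.2, 28.7 and 28.7 in WT (0.65 ± 0.14, edgeR adjusted p = 0.128, DESeq2 adjusted p = 0.00825). Cdx1, Cdx2 and Hnf4a, regulators of colonocyte identity, stood at 0.48 ± 0.19, 0.30 ± 0.25 and 0.16 ± 0.18, without a call. Cdx2 was high in KO 3 alone among the KO libraries, with 184, 182 and 287 CPM in KO and 185, 212 and 131 in WT.

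**Figure D5:**
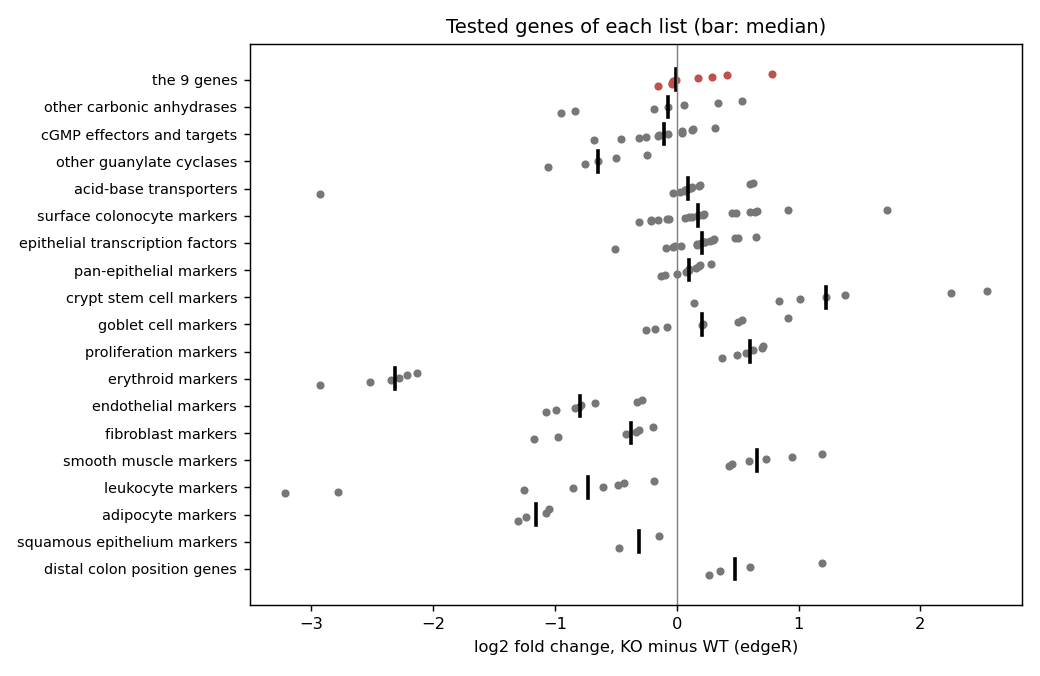
Log2 fold change (KO minus WT, edgeR) of each tested gene in each list, with the list's median as a bar and the 9 genes described here in red. The 9 genes lie between -0.16 and 0.78 with a median of -0.01, amid the epithelial lists, while erythroid markers lie furthest below 0 (median -2.31, and -1.21 without WT 3).

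Lists of some other cell types had medians farther from 0, though no listed gene passed in edgeR. Crypt stem cell markers had a median log2 fold change of 1.22 (0 of 7 called in edgeR and 6 in DESeq2, 6 at an unadjusted p below 0.05), smooth muscle markers 0.66 (0 of 6 and 3) and proliferation markers 0.60 (0 of 6 and 0). Goblet cell markers stood at 0.21 (0 of 8 and 1), and at 0.41 without KO 3. Below 0 lay erythroid markers at -2.31 (0 of 6 and 2), adipocyte markers at -1.16 (0 of 4 and 1), endothelial markers at -0.79 (0 of 8 and 2) and leukocyte markers at -0.73 (0 of 8 and 3). Without WT 3 the erythroid median was -1.21 and the adipocyte median -0.41, and without KO 3 the endothelial median was -0.46. Agr2, a goblet cell protein disulfide isomerase, had 1932 ± 167 CPM in KO and 1025 ± 84.0 in WT (0.91 ± 0.17, edgeR adjusted p = 0.0849).

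By the distance between centred log2 CPM profiles over the 6 libraries, the genes most like Car1 were Aldh1a1, a retinal dehydrogenase (distance 0.20), and Ugt2b36, a glucuronosyltransferase (0.23). Aldh1a1 had 64.7, 119 and 348 CPM in KO and 137, 117 and 70.7 in WT. The nearest to Guca2a was Rab4a (0.10), with 23.8, 27.4 and 41.5 CPM in KO and 45.7, 26.2 and 24.8 in WT, and the nearest to Gucy2c was Acot1 (0.03). Flat profiles lie near many genes, so these distances describe 6 libraries only.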

How the data were processed

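The authors deposited counts per gene, TPM, group means, log2 fold changes, p-values and false discovery rates, of which the counts and TPM were used. Per the labels' protocols, Trizol RNA was made into SMARTER mRNA-Seq libraries. Aligner, counting program and use of strand: not given in the sources used here. GRCm38, mm10 and mm39 are named, with no role, by the submitters' processing notes. TPM values of the authors served for levels between genes and for one alternative.

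Counts were tested with edgeR 4.0.16 (glmQLFTest, R 4.3.3), with TMM factors, filterByExpr and Benjamini-Hochberg adjustment over 14553 genes, called below 0.05. Standard errors and 95% intervals derive from the F statistic and are approximate. A pseudocount of 0.5 CPM was used for profile distances and for permutation tests of the CPM of single genes. Levels relative to the pan-epithelial markers, and their permutation tests, had no pseudocount. The scripts were tested on simulated data. Alternatives used DESeq2 1.42.0, limma 3.58.1, other factors and filters, a replicate block and leaving out libraries.

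Of 173 list entries 171 had a row, 3 of them found by identifier. The members and lists were chosen with earlier results of these data known. Named were the 9 genes and in each list up to 4 genes of smallest p. For each of the 9 the 2 genes of nearest profile with at least 1 CPM were found. Only some of these are named, for Car1, Guca2a and Gucy2c. Other genes named by library values were chosen after their values were seen.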

Additional observations from a re-analysis of the deposited data

How the results depend on the processing

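None of the 9 genes was called in any of the 14 alternative fits. Over all genes, calls went from 23 to 9 with median-ratio factors, 39 with upper-quartile factors, 548 in DESeq2, 69 with no count filter, 71 with limma on log2(TPM + 1) and 81 with the replicate block, and from 1 to 29 leaving out 1 library. Of the genes in the other lists, 19 were called in DESeq2 and 2 with the replicate block. Same-numbered libraries did not deviate together (correlations of -0.45, -0.17 and -0.47). These correlations cannot decide whether the numbers pair the samples, since larger differences between libraries can hide a shared litter or preparation. The labels do not state a pairing. Signs of small differences turned when 1 library was left out. Log2 fold changes then ranged from -0.34 to 1.21 for Car1, -0.058 to 0.30 for Car12, -0.39 to 0.36 for Guca2a, -0.48 to 0.17 for Guca2b, -0.16 to 0.029 for Gucy2c and -0.10 to 0.12 for Krt20. Relative to pan-epithelial markers they ranged from -0.33 to 0.93 for Car1, -0.041 to 0.15 for Car12, -0.31 to 0.16 for Guca2a and -0.25 to 0.016 for Krt20, and Car12 was -0.11 with Epcam alone as the base.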
